A study of Mus musculus with 10 samples.

Results

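The annexin family was followed in the left atrium of adult mice through 9 of its genes, Anxa1, Anxa2, Anxa3, Anxa4, Anxa5, Anxa6, Anxa7, Anxa8 and Anxa11, picked by symbol from a table of 23337 genes. All 9 were found and all 9 entered the test, which covered 13191 genes. The table also lists Anxa9, Anxa10 and Anxa13, which are given once for completeness. There were 4 libraries labelled control, with wild-type Tbx5 (Tbx5 +/+), and 6 labelled Tbx5 null (Tbx5-/-). In the null group, Cre recombinase under the ubiquitous R26 promoter was switched on by intraperitoneal tamoxifen at 0.167 mg a day for 3 days to remove exon 3 of Tbx5, a T-box transcription factor gene of the heart, and tissue was collected 1 week afterwards. Because the promoter is ubiquitous, the deletion was not restricted to heart muscle cells. All mice were of mixed C57B6 and 129 background, and the labels do not say whether controls carried Cre or received tamoxifen. The age is 8 to 10 weeks in the sample labels and 6 to 8 weeks in the extraction protocol. Males and females were in both groups (2 and 2 controls, 3 and 3 knockouts).

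Annexins are cytosolic proteins that bind negatively charged phospholipids, phosphatidylserine among them, when calcium rises. They share a conserved core of annexin repeats and differ in their N-terminal tails, which carry the binding sites for partners such as S100 proteins. They gather at injured plasma membranes, shape membrane traffic, and in the case of annexin A1 act outside the cell to restrain inflammation. In the heart, annexin A6 and annexin A7 are known from cardiomyocytes, while annexins A1, A2 and A5 are also abundant in fibroblasts, endothelium and myeloid cells.

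Total counts ran from 5701670 to 7697556 reads per library. Tbx5 itself had a normalized count (reads divided by a size factor for each library) of 939 ± 125 (SD) over the 4 controls. In the 6 libraries labelled knockout it was 1952 ± 336 (SD), above every control in all 6 (exact two-sided permutation test, p = 0.00476, the smallest that 210 splits allow). Exon 3 is 95 bp of a 3942 bp transcript, so this count does not measure the deletion, and each direction given here rests on the labels. The cardiomyocyte markers Myh6, Actn2, Tnnt2, Tnni3, Ttn, Ryr2 and Pln were abundant in every library, with a summed level of 643065 to 830571 in controls and 323185 to 465341 in labelled knockouts. Ttn made up most of that sum in controls, with a mean of 448113. In labelled knockouts its mean was 135951, beside 138013 for Myh6. The 7 markers did not move together: Actn2 (0.43) and Tnnt2 (0.63 on the log2 scale) rose, Myh6, Ttn and Ryr2 fell, and Tnni3 and Pln did not pass. Markers of lung epithelium were at or near 0 (summed level at most 3.72), and lymphocyte markers summed to at most 19.5.

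The 250 bases before the RefSeq start sites of Anxa1, Anxa2 and Anxa5 are shown so that the promoters of 3 genes that rose together can be read side by side. These windows (GRCm38.p6, written 5′ to 3′ on the gene's strand) are chr19:20390672-20390921 (minus strand) for Anxa1, chr9:69453433-69453682 (plus strand) for Anxa2 and chr3:36475888-36476137 (minus strand) for Anxa5. Capitals mark matches to any of the 4 motifs searched.
Anxa1: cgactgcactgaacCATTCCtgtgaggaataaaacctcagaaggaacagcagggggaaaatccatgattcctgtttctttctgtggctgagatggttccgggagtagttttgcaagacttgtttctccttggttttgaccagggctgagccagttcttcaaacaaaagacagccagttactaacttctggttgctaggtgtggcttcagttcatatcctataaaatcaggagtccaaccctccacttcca
Anxa2: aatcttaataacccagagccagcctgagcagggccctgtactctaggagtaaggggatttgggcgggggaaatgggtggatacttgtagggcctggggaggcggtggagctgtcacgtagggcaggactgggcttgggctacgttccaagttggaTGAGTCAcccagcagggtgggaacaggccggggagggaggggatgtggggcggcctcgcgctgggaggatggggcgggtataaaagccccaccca
Anxa5: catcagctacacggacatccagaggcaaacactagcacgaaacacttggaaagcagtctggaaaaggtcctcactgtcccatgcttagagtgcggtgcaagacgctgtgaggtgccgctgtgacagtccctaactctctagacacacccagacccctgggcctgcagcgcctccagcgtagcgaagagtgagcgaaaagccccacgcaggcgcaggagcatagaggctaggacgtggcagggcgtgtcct

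Both strands were searched for a T-box half-site (GGTGTNA), the TEAD motif GGAATG, the AP-1 motif TGANTCA and the CArG box bound by serum response factor. RefSeq promoters were matched for 7 of the 9 genes, in 9 windows. Anxa1 held 1 TEAD match, 236 bases before the start, and Anxa2 held 1 AP-1 match, 95 bases before the start. The Anxa5 window held none of the 4. The T-box half-site was not found in any of the 9 windows. Over 32851 mouse promoter windows of the same length, 8.61% held the T-box half-site, 12.6% the TEAD motif, 6.75% the AP-1 motif and 1.47% the CArG box. The windows also differed in composition. The Anxa1 window was 46% G and C with 2 CpG dinucleotides, that of Anxa2 62.4% with 9, and that of Anxa5 58.8% with 13.

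The comparison asked which annexin genes change in the adult left atrium when Tbx5 is removed. Of the 9 genes, 7 rose in the libraries labelled knockout (Anxa1 to Anxa7), none fell, and Anxa8 and Anxa11 did not pass (edgeR quasi-likelihood test, Benjamini-Hochberg adjusted p of 0.05 over all 13191 genes). Among all tested genes 42.6% passed, 20.8% upward and 21.8% downward. In all 7 genes every labelled knockout library lay above every control library, which held for 16.3% of tested genes. The median log2 fold change of the 9 was 0.67, and -0.00092 over all tested genes. Summed over the 9, annexin reads made up 0.0831% to 0.110% of a control library and 0.159% to 0.227% of a labelled knockout library.

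**Figure D1:**
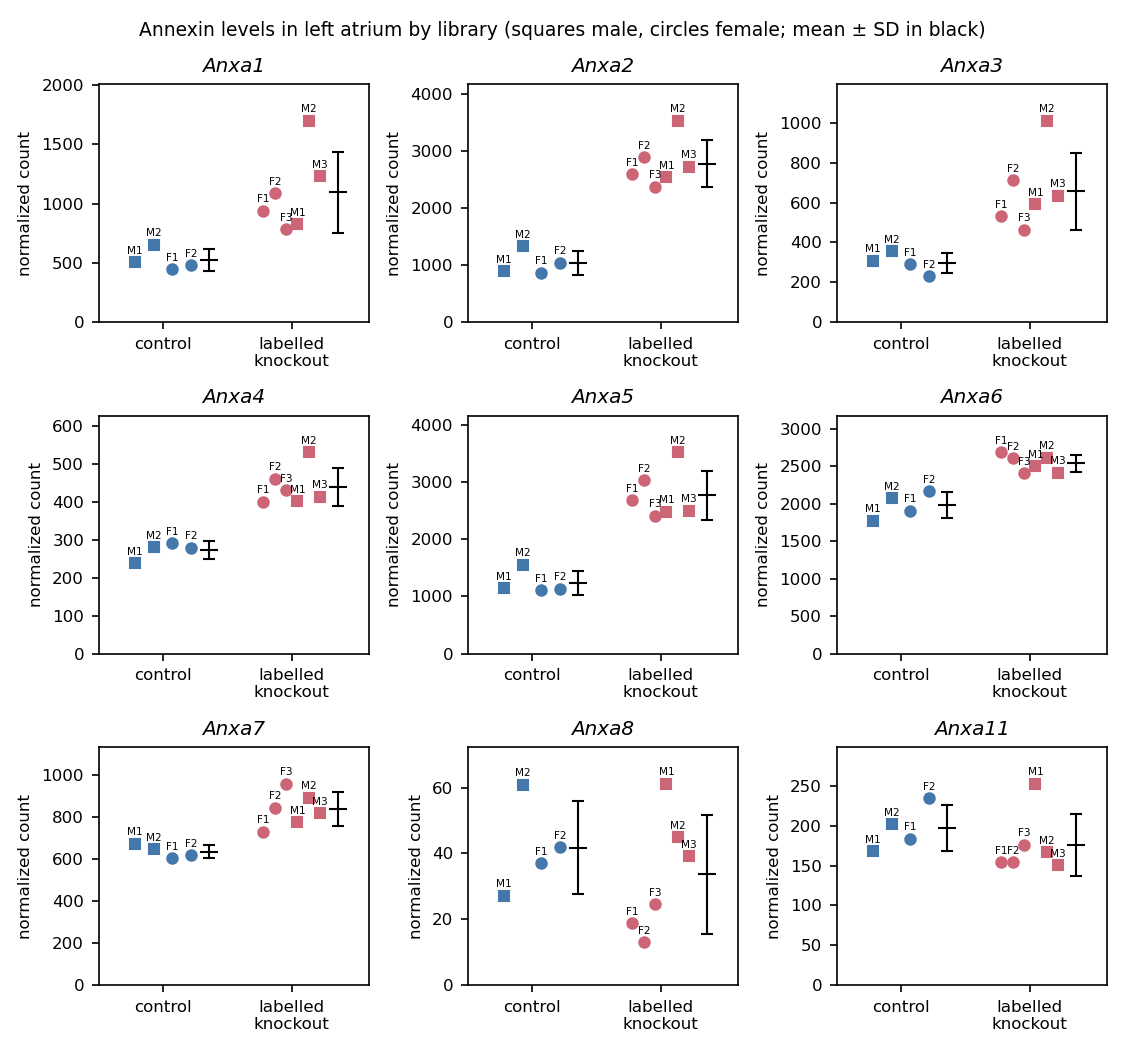
Normalized counts of the 9 annexin genes in each library (vertical axes start at 0; squares male, circles female, black bars mean ± SD over 4 controls and 6 labelled knockouts). From Anxa1 to Anxa7 all 6 labelled knockout libraries lie above the 4 controls, while Anxa8 and Anxa11 overlap; knockout M2 is the highest point for Anxa1 to Anxa5.

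Anxa2 had the largest rise. Annexin A2 joins a pair of S100a10 chains in a membrane-bound complex that anchors plasminogen activators and links membranes to actin. Its gene lies on chromosome 9 (69453620 to 69491795, plus strand, GRCm38). Its normalized counts were 892, 1329, 866 and 1038 in controls M1, M2, F1 and F2, and ran from 2369 to 3526 in labelled knockouts with a median of 2658. The lowest labelled knockout, F3, was well above the highest control, M2. The log2 fold change was 1.40 ± 0.14 (SE; adjusted p = 7.10e-06), or 2.64-fold.

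Anxa5, the annexin used in the laboratory to stain exposed phosphatidylserine, lies on chromosome 3 (36448923 to 36475894, minus strand). It had 1140, 1550, 1103 and 1134 normalized counts in controls M1, M2, F1 and F2. The labelled knockouts ran from 2409 to 3516, with a median of 2584. Control M2 stood apart from the other controls, and the groups did not overlap. The rise was 2.21-fold (log2 fold change 1.14 ± 0.13, adjusted p = 1.93e-05).

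Anxa1 encodes the glucocorticoid-induced annexin whose N-terminal peptide signals through formyl peptide receptors, and lies on chromosome 19 (20373428 to 20390944, minus strand). Controls M1, M2, F1 and F2 had 505, 653, 448 and 481 normalized counts. Labelled knockouts ran from 784 in F3 to 1699 in M2, with a median of 1013. The spread within the labelled knockouts was wide, yet none reached down to the controls. The log2 fold change was 1.04 ± 0.20 (adjusted p = 0.000822), and 0.88 without knockout M2.

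Anxa3, an annexin known from endothelium and neutrophils, lies on chromosome 5 (96793339 to 96845966, plus strand). Its controls M1, M2, F1 and F2 had 309, 356, 293 and 230 normalized counts. Labelled knockouts ran from 464 to 1013, again with M2 highest, and had a median of 614. The log2 fold change was 1.12 ± 0.19 (adjusted p = 0.000391), and 0.96 without knockout M2. Anxa4, best known from secretory epithelia and from plasma membrane repair, lies on chromosome 6 (86736840 to 86793584, minus strand). It went from 238, 281, 291 and 279 normalized counts in controls M1, M2, F1 and F2 to a range of 401 to 531 and a median of 423. Its smaller rise was among the more even ones, with an SD of 49.9 in the labelled knockouts (log2 fold change 0.67 ± 0.10, adjusted p = 0.000168).

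Anxa6 and Anxa7 rose least. Annexin A6 has a duplicated core and lies under the plasma membrane of cardiomyocytes. Its gene, on chromosome 11 (54979108 to 55033445, minus strand), had 1774, 2076, 1907 and 2169 normalized counts in controls M1, M2, F1 and F2. Labelled knockouts ran from 2413 to 2690, with a median of 2557. The gap between the groups was narrow, and the rise was 1.26-fold (log2 fold change 0.34 ± 0.09, adjusted p = 0.00620). Anxa6 did not pass once offsets for transcript length and GC were added (0.18 on the log2 scale, adjusted p = 0.0741).

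Annexin A7, also called synexin, binds the calcium-sensing protein sorcin. Anxa7 (chromosome 14, 20455260 to 20480133, minus strand) had 673, 646, 604 and 618 normalized counts in controls M1, M2, F1 and F2. It ran from 731 to 959 in labelled knockouts with a median of 832. Here F3, the lowest labelled knockout for Anxa1, Anxa2, Anxa3, Anxa5 and Anxa6, was the highest. The log2 fold change was 0.37 ± 0.09 (adjusted p = 0.00401).

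Anxa8 and Anxa11 also lie on chromosome 14 (34085981 to 34100571 and 25842156 to 25886804, both plus strand). Anxa8, an annexin of epithelia, was the scarcest member, with 14 to 72 reads per library. Its controls M1, M2, F1 and F2 had 27.2, 61.0, 37.0 and 41.8 normalized counts, and labelled knockouts ran from 13.03 to 61.2 with a median of 32.0. The groups overlapped (log2 fold change -0.37 ± 0.36, adjusted p = 0.438). Annexin A11 has a long N-terminal tail that binds the penta-EF-hand protein encoded by Pdcd6. Anxa11 had 168, 202, 184 and 235 normalized counts in controls M1, M2, F1 and F2, and ran from 151 to 253 with a median of 161 in labelled knockouts. Of the 6 labelled knockouts, 4 were below the lowest control and M1 was above the highest. The log2 fold change was -0.19 ± 0.15 (adjusted p = 0.324), and without knockout M1 it was -0.31 and passed (adjusted p = 0.0361).

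Anxa9, on chromosome 3, fell. It had 27.2 to 42.9 normalized counts in controls and 8.54 to 21.1 in labelled knockouts (log2 fold change -1.08 ± 0.25, adjusted p = 0.00339), on 9 to 41 reads per library. In males alone it did not pass (-0.58, adjusted p = 0.246), and in females it was at -1.60 (adjusted p = 0.00251). The difference was 1.01 ± 0.44 (unadjusted p = 0.0400, adjusted p = 0.667). Its exons overlap those of Mindy1 on the other strand by 71 bp and those of 6330562C20Rik on the same strand by 94 bp. Anxa13 had 1 to 4 reads per library and was not tested. Anxa10 had no read in any library, which allows up to 3 counts over the 10 libraries together (counting error only).

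In the authors' deposited table, the same 7 genes were higher with an adjusted p under 0.05 (18.7% of the genes given an adjusted p there were higher). The authors' deposited table gives a log2 fold change of 1.39 for Anxa2, 1.14 for Anxa5, 1.02 for Anxa1 and 0.36 for Anxa6. Other annotated transcripts overlap annexin exons in a few places. These are 98 bp of an antisense gene for Anxa2, 75 bp of an opposite-strand lincRNA for Anxa4, 113 bp of Anxa11os for Anxa11 and 112 bp of a same-strand transcript for Anxa3. The strand setting of the counting is not given in the sources used here, so reads there cannot be assigned with certainty.

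Compared per length, as normalized reads per kilobase of annotated exon, the order of the family shifted. In controls Anxa5 (693 ± 120 per kb, SD, n = 4) and Anxa6 (676 ± 60.1) were the most abundant and could not be ordered, since Anxa5 was above Anxa6 in 2 of 4 libraries. Anxa2 followed at 276 ± 57.0, Anxa1 at 179 ± 31.1, Anxa7 at 106 ± 5.12, Anxa3 at 81.5 ± 14.3, Anxa4 at 58.6 ± 5.11, Anxa11 at 47.7 ± 7.004 and Anxa8 at 22.2 ± 7.54. Of the neighbours in this order, Anxa5 with Anxa6 and Anxa4 with Anxa11 had overlapping ranges.

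In labelled knockouts Anxa5 stood first at 1557 ± 242 per kb (SD, n = 6), above Anxa6 (868 ± 39.2) in all 6 libraries. Anxa2 had come close to Anxa6 at 743 ± 110, below it in 5 of 6 libraries. Anxa1 was at 376 ± 117, Anxa3 at 181 ± 53.1 and Anxa7 at 140 ± 13.6, with Anxa3 above Anxa7 in 5 of 6 libraries, the reverse of their order in controls. Anxa4 (94.8 ± 10.8), Anxa11 (42.6 ± 9.42) and Anxa8 (17.9 ± 9.65) kept the last places. The summed level of the 9 genes was 1963 to 2509 per kb in controls and 3519 to 5007 in labelled knockouts. Within that sum, Anxa6 made up 31.7% ± 2.85 in controls and 21.8% ± 2.24 in labelled knockouts, and Anxa2 12.8% ± 1.06 and 18.5% ± 0.404.

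**Figure D2:**
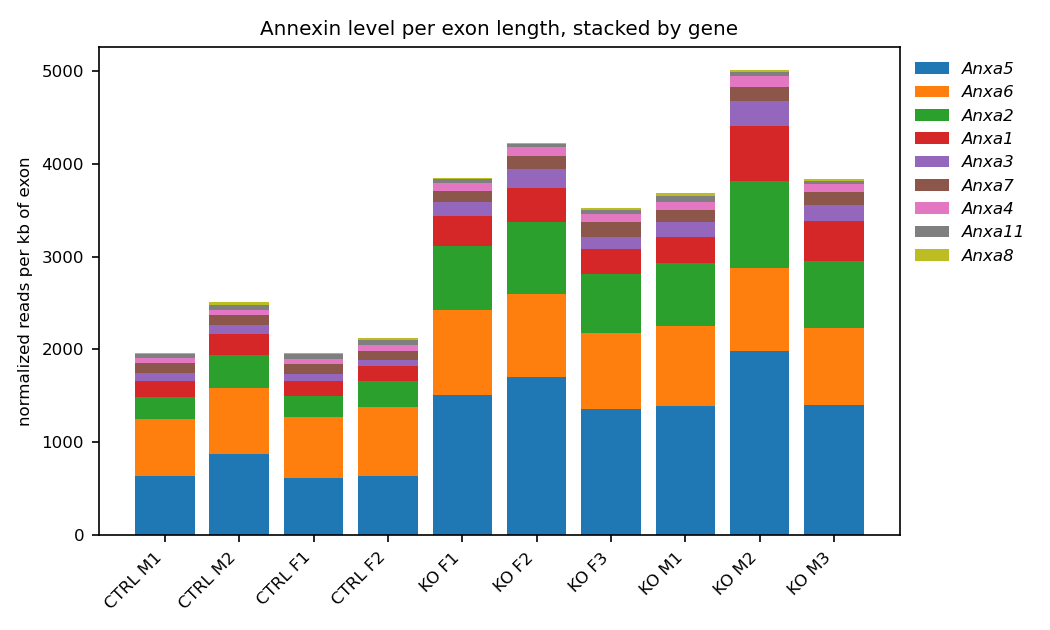
Normalized reads per kilobase of annotated exon for each annexin gene, stacked within each library (CTRL control, KO labelled knockout; the vertical axis starts at 0). The stacks reach 1963 to 2509 in controls and 3519 to 5007 in labelled knockouts, with the Anxa2 share growing from 12.8% to 18.5% on average.

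Change within the family is also shown as the ratio of 2 genes in the same library. The pairs were picked after the values were seen, so these ratios are a description with no test. The ratio of Anxa2 to Anxa6 counts was 0.455 to 0.640 in controls and 0.964 to 1.35 in labelled knockouts. The group means differed by 1.07 on the log2 scale, with no overlap. Anxa5 to Anxa6 went from a range of 0.523 to 0.747 to one of 0.990 to 1.34, a difference of 0.81. For Anxa2 to Anxa5 the ratios were 0.782 to 0.915 and 0.953 to 1.09, a difference of 0.27. Against Anxa1 the Anxa2 difference was 0.40, and the ranges overlapped, at 1.76 to 2.15 and 2.07 to 3.06.

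For Anxa1 to Anxa7 the difference between the male and the female log2 fold change was within 0.20 for each of these 7 genes, with standard errors of 0.18 to 0.34. No annexin passed the test of that difference after adjustment with edgeR or with DESeq2. On simulated counts the edgeR test recovered 1.49% of 1.5-fold and 22.4% of 2-fold differences, so it could miss differences of that size. At an unadjusted p of 0.05, 1 of the 9 annexin genes passed, where 7.15% of tested genes passed unadjusted and 0.205% after adjustment. That gene was Anxa8. In females its log2 fold change was -1.09 ± 0.30 (adjusted p = 0.0135) and in males 0.10 ± 0.37 (adjusted p = 0.883), a difference of 1.17 ± 0.50 (unadjusted p = 0.0377, adjusted p = 0.652). All 3 female labelled knockouts, at 13.03 to 24.7 normalized counts, were below both female controls, at 37.0 and 41.8, and the males overlapped. Taken alone, females gave 6 rises (Anxa6 missed, at adjusted p = 0.0570) and 2 falls, those of Anxa8 and Anxa11, and males gave 5 rises, without Anxa6 and Anxa7. Among all genes tested in each sex, 17.6% rose in females and 8.14% in males. In females 2621 of 13257 tested genes fell, so 2 falls among the 9 do not set the annexins apart.

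**Figure D3:**
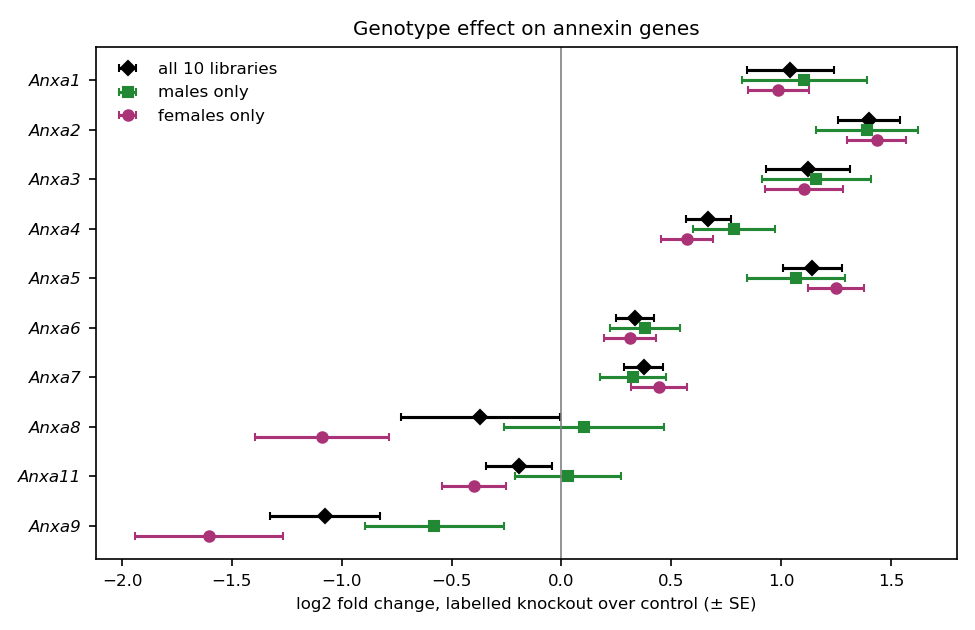
Log2 fold change (labelled knockout over control, ± SE) of the 9 annexin genes and Anxa9 from all 10 libraries, from 5 males and from 5 females. Anxa1 to Anxa7 lie to the right of 0 in all 3 fits, while for Anxa8 the females (-1.09) and males (0.10) lie apart, a difference that did not pass after adjustment.

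Several genes had nearly the same profile across the 10 libraries as the 3 annexins with the smallest p. The measure was the root mean square difference of mean-centred log2 normalized counts, over 9629 candidate genes with a mean of at least 50. It spans both groups, so genes with a similar group difference come out near. The genes nearest Anxa2, itself at a log2 fold change of 1.40, were at 1.20 to 1.34. For Anxa2 the nearest were Mxra7 (0.11), the complement gene C1qb (0.13), Gpx7 (0.14), Ifi30 (0.15) and the fibroblast transcription factor gene Tcf21 (0.15), where Anxa2 itself varied by 0.73. For Anxa5, which varied by 0.60, they were the cytoskeletal genes Actb (0.06), Vim (0.06) and Tubb5 (0.07), the nucleoside diphosphate kinase gene Nme1 (0.08) and the actin-severing Cfl1 (0.08). Vim had 3674 ± 438 normalized counts in controls and 8291 ± 1030 in labelled knockouts. For Anxa4, which varied by 0.36, they were Rpl39 (0.07), Hist1h1c (0.08), Sat1 (0.08), Ap2s1 (0.08) and Rps6ka4 (0.08). Ribosomal protein and histone genes have near-identical copies, so the first 2 of these are uncertain.

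Marker sums of several other cell types also differed between the groups. Beside the counts below, 20.8% of all tested genes were higher and 21.8% lower. In 16.3% of tested genes every labelled knockout lay above every control. Macrophage markers rose in 7 of 7 tested cases, and their summed level was 2882 to 4059 in controls and 6782 to 10373 in labelled knockouts. Of 6 fibroblast markers, 4 rose and 1 fell, with sums of 16265 to 18225 in controls and 22366 to 28682 in labelled knockouts. Markers of activated fibroblasts rose in 3 of 5 (866 to 1582 against 4224 to 14300) and those of dividing cells in 6 of 6 (99.4 to 295 against 921 to 2537). Postn made up most of the activated fibroblast sum (mean 784 in controls and 6548 in labelled knockouts), and Fap and Comp did not pass. Cthrc1, Cdk1, Ccnb2, Tpx2 and the smooth muscle marker Cnn1 were scarce in controls. Their lowest controls were at 1.16, 9.41, 4.63, 4.63 and 6.94 normalized counts. These markers passed the filter through the labelled knockouts, so their rises are no separate support. Sums of vascular endothelium (6607 to 7305 against 7638 to 8335, 3 of 6 markers higher and 1 lower) did not overlap either. The same held for endocardium (8781 to 10047 against 11246 to 13974, 2 of 4 higher and 2 lower) and for smooth muscle and pericytes (1959 to 2378 against 2732 to 3637, 4 of 6 higher). Among endocardial markers, mean Vwf rose from 4277 to 8625 and Plvap from 692 to 876. Npr3 fell from 4155 to 2814 and Cytl1 from 428 to 174, so that sum rose through Vwf and not through the list as a whole. Within each group, M2 held the highest macrophage, activated fibroblast and dividing cell sums and the lowest cardiomyocyte sum. In controls that last sum is mostly Ttn. M2 was also the highest control for Anxa1, Anxa2, Anxa3 and Anxa5 and the highest labelled knockout for these 4 and Anxa4. With both M2 libraries left out, 7 annexin genes rose, with log2 fold changes of 1.00 for Anxa1, 1.47 for Anxa2 and 1.20 for Anxa5. The part of cell composition in the annexin rises was not tested. In whole tissue, fewer cells of a type and less RNA per cell cannot be told apart. Neutrophil markers were scarce, with a summed level of 8.10 to 26.1 in controls and 29.0 to 51.3 in labelled knockouts, and lung epithelium was near 0. Epicardial and mesothelial markers overlapped between the groups (2825 to 3599 against 2779 to 4308), with 1 of 7 higher.

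S100 genes, whose products bind the annexin tails, rose in 7 of 8 cases with none lower (median log2 fold change 0.87), where 20.8% of all tested genes were higher. In males alone it was 3 of 8, against 8.14% of all genes. With the length and GC offsets 5 S100 genes were higher and 1 lower (2536 higher and 2593 lower over all genes). S100a10, the partner of annexin A2, had 460, 710, 557 and 539 normalized counts in controls M1, M2, F1 and F2. It ran from 1076 to 1707 in labelled knockouts, again highest in M2, and the groups did not overlap (log2 fold change 1.17 ± 0.14, adjusted p = 2.80e-05). The ratio of Anxa2 to S100a10 was 1.55 to 1.94 in controls and 1.85 to 2.35 in labelled knockouts, a log2 difference of 0.24, and these ranges overlapped.

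S100a4, a marker of motile and fibroblastic cells, rose most, from 46.0 to 109 normalized counts in controls to 441 to 988 in labelled knockouts (log2 fold change 3.24 ± 0.30). S100a16 rose from 263 ± 34.2 to 460 ± 67.6 and S100a6, a partner of several annexins, from 552 ± 144 to 1095 ± 197. S100a11, the partner of annexin A1, was scarce, with 14.0 ± 4.64 and 36.3 ± 12.5 normalized counts (log2 fold change 1.31 ± 0.29). Its lowest control, at 10.4, fell short of the filter. S100a11 thus passed it through the labelled knockouts, and its rise is no separate support. The ratio of Anxa1 to S100a11 was 30.7 to 43.5 in controls and spread from 14.0 to 49.2 in labelled knockouts. S100a1, the S100 gene of heart muscle, did not pass (2037 ± 177 and 1903 ± 304), but was lower with the length and GC offsets (log2 fold change -0.41, adjusted p = 0.00662).

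**Figure D4:**
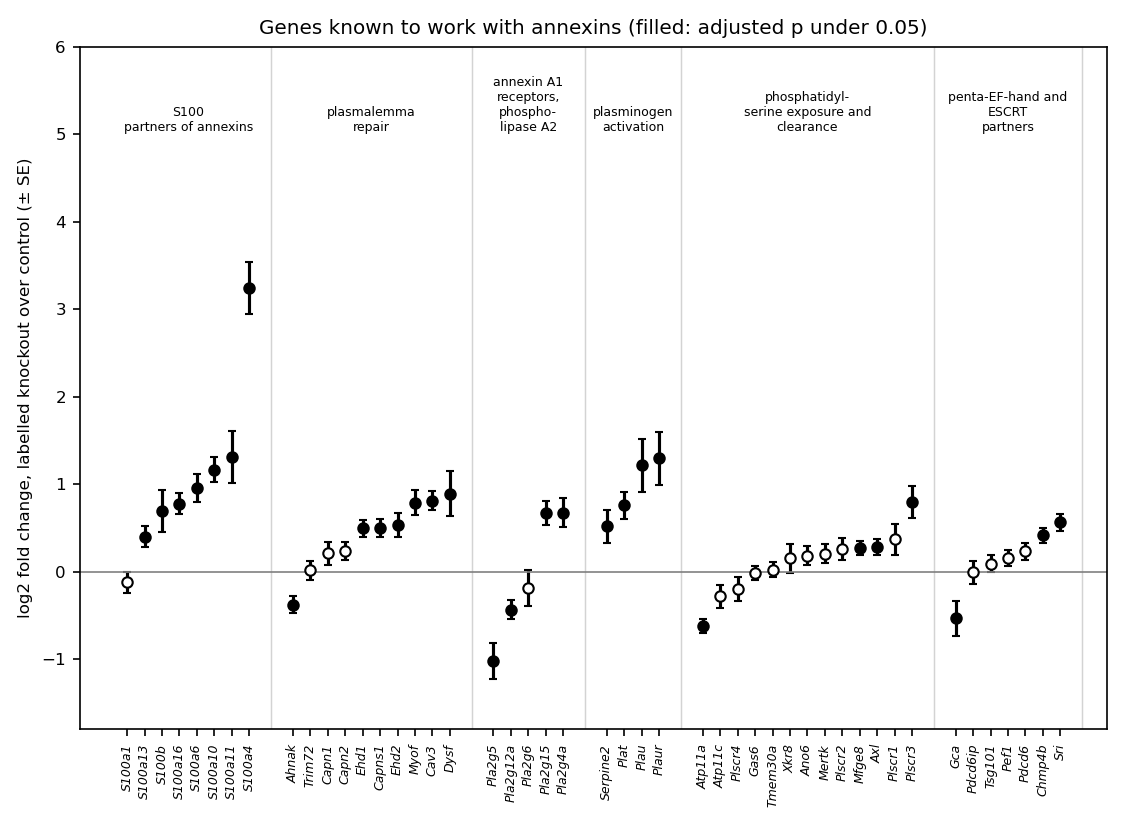
Log2 fold change (labelled knockout over control, ± SE) of tested genes in 6 lists of annexin partners and related functions; filled points passed an adjusted p of 0.05. S100 and plasminogen activation genes lie mostly above 0, with S100a4 (3.24) highest, while phosphatidylserine genes lie mostly near 0.

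Plasminogen activation, which the annexin A2 complex promotes at cell surfaces, had all 4 tested genes of its list higher (median 0.99, where 20.8% of all genes rose). These 4 include Serpine2, a protease inhibitor gene and not an activator, and Plaur, which passed the filter through its reads in the labelled knockouts. In males alone 2 of the 4 were higher (8.14% of all genes). The count was 3 without control M2 and 3 without knockout M2 (2713 and 2469 higher over all genes). Plat, the tissue activator, rose from 330 ± 85.8 to 568 ± 76.3 normalized counts, with no overlap between the groups (log2 fold change 0.76 ± 0.15). Plaur, the urokinase receptor, was scarcer and rose from 14.3 ± 6.97 to 37.0 ± 10.8, also with no overlap. It had 6 to 28 reads per control library and 31 to 64 per labelled knockout library. Control F1 fell short of the filter, so the rise of Plaur is no separate support. Plau, urokinase itself, ran from 20.1 to 52.5 in controls and from 37.9 to 112 in labelled knockouts, and those ranges overlapped (log2 fold change 1.22 ± 0.30). Serpine2, which encodes a serine protease inhibitor, rose from 253 ± 96.8 to 368 ± 11.8 (log2 fold change 0.52 ± 0.19, adjusted p = 0.0376). For Serpine2 the sexes differed by 1.00 ± 0.18 (adjusted p = 0.0460), with 1.12 in males (adjusted p = 0.00448) and 0.10 in females (adjusted p = 0.527). Plg, plasminogen itself, had no read in any library.

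Of 10 plasmalemma repair genes, 6 rose, 1 fell and 3 did not pass (median 0.50), where 20.8% of all tested genes rose and 21.8% fell. Males alone gave 2 rises, where 8.14% of all genes rose. Cav3, the muscle caveolin, rose from 350 to 405 normalized counts in controls to 576 to 849 in labelled knockouts (log2 fold change 0.81 ± 0.11). Myof, which encodes the ferlin myoferlin, rose from 313 ± 34.6 to 552 ± 118, and the membrane traffic gene Ehd1 from 476 ± 46.4 to 684 ± 71.9. Ahnak, a large scaffold protein that binds the annexin A2 complex, was the gene that fell, from 20157 ± 1398 to 15772 ± 1008 (log2 fold change -0.38 ± 0.10). With the length and GC offsets Ahnak was at 0.05 and did not pass (adjusted p = 0.704). The repair ligase gene Trim72 did not pass (1535 ± 134 and 1578 ± 222).

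The receptors of annexin A1 had few reads. Fpr1 had 0 to 2 reads per control library and 2 to 13 per labelled knockout library, and Fpr2 0 to 4 and 3 to 17, and neither entered the test over all libraries. In females alone Fpr2 passed the filter, through the reads of the labelled knockouts (17, 9 and 12, against 1 and 0 in controls). Its fit there is not counted as a result. Among the phospholipases A2, a family with some members that annexin A1 is known to restrain, 2 rose and 2 fell of 5 tested, where 42.6% of all tested genes changed. Males alone gave 1 rise and 1 fall, where 1074 of 13196 tested genes rose and 987 fell. Pla2g4a, the cytosolic enzyme, rose from 174 ± 13.5 to 282 ± 70.8 and Pla2g15, the lysosomal one, from 85.4 ± 9.09 to 139 ± 20.7, while the secreted Pla2g5 fell from 192 ± 40.4 to 96.5 ± 25.3.

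Genes for exposing phosphatidylserine, the lipid annexin A5 binds, and for clearing cells that display it numbered 13, of which 3 rose, 1 fell and 9 did not pass (median 0.18). Of all tested genes 42.6% changed, so this count does not set the list apart. With library-size scaling 7 were higher, where 3942 of all 13191 genes were. In males alone none was higher, against 8.14% of all genes. The flippase gene Atp11a fell from 1674 ± 60.2 to 1105 ± 79.7 (log2 fold change -0.62 ± 0.08). The scramblase family gene Plscr3 rose from 50.1 ± 1.79 to 88.7 ± 22.1 and the bridging protein gene Mfge8 from 953 ± 67.4 to 1169 ± 78.9. Mfge8 did not pass with the length and GC offsets (adjusted p = 0.118).

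Among 7 penta-EF-hand and ESCRT partners, 2 rose, 1 fell and 4 did not pass (median 0.16), a share close to the 42.6% of all tested genes. Library-size scaling gave 4 rises and no fall (3942 higher and 2020 lower over all genes). Males alone gave 1 rise and no fall (1074 higher and 987 lower over all genes). Sri, which encodes the annexin A7 partner sorcin, rose from 254 to 303 normalized counts in controls to 381 to 466 in labelled knockouts, with no overlap (log2 fold change 0.57 ± 0.09). The membrane-scission gene Chmp4b rose from 551 ± 32.2 to 749 ± 65.2. Gca, encoding grancalcin, passed narrowly (log2 fold change -0.53 ± 0.20, adjusted p = 0.0487) and did not pass in 9 of the 10 fits that leave out 1 library. Pdcd6, whose product binds annexin A11, did not pass (281 ± 17.8 and 337 ± 32.6, adjusted p = 0.0611), although its groups did not overlap. It passed with DESeq2 (adjusted p = 0.0427), but was at 0.076 on the log2 scale with the length and GC offsets (adjusted p = 0.481, edgeR).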

How the data were processed

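RNA of left atrial tissue was sequenced as single-end reads of 51 bp in 10 libraries, per the labels' protocols, which name both an mRNA kit and ribosome-depleted total RNA. Globin RNA was depleted. The build was mm10 and the listed tools include featureCounts, TopHat2 2.0.11, DESeq2 and FastQC, per the submitters' processing notes. No source used here gives the annotation, strand setting or handling of multiply mapped reads. For each gene symbol the deposited files hold raw counts, a normalized signal (counts scaled by each library's size factor, as checked), and their own log2 fold change with its standard error, fold ratio, Wald score, p-value and adjusted p-value.

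Samples were grouped by title. Raw counts were tested with edgeR 4.0.16 in R 4.3.3 (filterByExpr, TMM, quasi-likelihood F-test, Benjamini-Hochberg at 0.05). Each SE was derived from the F statistic and the log2 fold change. The sex difference was an interaction term. Functions were first tested on simulated counts. Levels are deposited normalized counts. Ratios of genes used a pseudocount of 1. Leaving out both M2 libraries was added after seeing the data, as were the gene ratios. Gene positions and exon lengths came from GENCODE M21 (GRCm38), promoters from RefSeq. All value columns were matched to a library.

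The 9 genes and all gene lists were chosen with earlier results of these data known. Named genes are the 9, other annexin symbols, the 3 list members of smallest adjusted p, S100a10, Fpr1, Fpr2 and the 5 nearest profiles. S100a6, S100a11, S100a1, Ahnak, Trim72, Plg, Serpine2 and Pdcd6 were named after their values were seen. Within groups, library correlations of log2 CPM were 0.964 to 0.986, and no 2 libraries agreed within sampling noise (lowest chi-square per degree of freedom 4.22). The labels number libraries by sex within a group. If these are not separate animals, p-values measure only the spread between samples. 1 listed gene is not reported here and was left out of the counts, and 3 other listed symbols (Plgrkt, Adgre1 and Ly6g) were not matched.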

Additional observations from a re-analysis of the deposited data

Results flagged for a closer look

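Among 18 sets of values (9 genes in 2 groups), 2 held a library far from the others of its group, where chance gives about 1 in 20. Anxa5 was 1550 normalized counts in control M2, against 1140 in the next control. Without that library its log2 fold change was 1.29 (adjusted p = 1.50e-05, edgeR). Anxa11 was 253 in knockout M1, against 176 in the next labelled knockout. Without that library Anxa11 passed as lower (log2 fold change -0.31, adjusted p = 0.0361, edgeR). Among the partner genes, Serpine2 differed between the sexes by 1.00 ± 0.18 on the log2 scale, male minus female (edgeR interaction test, adjusted p = 0.0460), with 1.12 in males and 0.10 in females. Over all 13191 genes 27 passed that test.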

How the results depend on the processing

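Alternatives were RLE, upper-quartile and library-size scaling, DESeq2, limma-voom, no filter, a minimum of 50 counts in 4 or more libraries, sex as covariate, a replicate block, offsets for length and GC content (fitted without regard to group on 11948 genes, 90.6% of those tested), each sex alone, each library left out and both M2 libraries left out. Anxa1 to Anxa5 rose in all 23, with Anxa2 between 1.27 and 1.57 on the log2 scale and Anxa1 between 0.88 and 1.19. Anxa6 passed in 20, missing with the offsets and in each sex alone (adjusted p = 0.139 in males). Anxa7 passed in 22, missing in males (adjusted p = 0.178). Without any one library, 7 to 8 of the 9 genes passed. The replicate names do not pair the samples, since 1 of 4 controls correlated best with the knockout of its name. With the replicate block, 7 of the 9 passed, and over all genes 5411 against 5622. Library-size scaling moved the median of all genes to 0.14 and the split of calls to 3942 higher and 2020 lower. Males alone gave 2061 calls over all genes. No annexin passed the test of a sex difference in any alternative run, with Anxa8 between 0.74 and 1.89 (SE 0.47 and 0.52), while the calls over all genes in that test went from 27 to 80 with DESeq2, to 13 with the stricter filter and between 7 and 77 without 1 library. Without the filter, phospholipase and receptor genes higher numbered 4 in place of 2, where 2935 of all genes were higher. The genes added were Fpr1 and Fpr2, with 0 to 2 and 0 to 4 reads per control library. Their calls rest on the labelled knockout reads and are not counted as results. With the offsets 6 of the 9 annexin genes passed and Ahnak reversed to 0.051 (adjusted p = 0.704). With the block Mfge8 (adjusted p = 0.0552) and Gca (adjusted p = 0.0964) did not pass. Anxa8 had 14 to 72 reads per library and Anxa9 9 to 41.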
